A study of Homo sapiens with 6 samples.

Results

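The respiratory chain passes electrons from NADH and succinate to oxygen through complexes I to IV, and ATP synthase uses the proton gradient that complexes I, III and IV build. Most subunits are encoded in the nucleus and imported, while a small set is transcribed inside the mitochondrion from its own genome, so complexes I, III, IV and ATP synthase are each assembled from products of both genomes. Complex II is wholly nuclear. Glutamine feeds this machinery because, once converted to glutamate and alpha-ketoglutarate, it supplies carbon to the tricarboxylic acid cycle, which delivers NADH and succinate to the chain.

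The members described here are the protein-coding rows of the count table whose GENCODE 29 symbol begins with NDUFA, NDUFB, NDUFC, NDUFS, NDUFV, UQCR, COX4 to COX8, ATP5 or MT-, together with CYC1. The 8 protein-coding NDUFAF genes, which assemble complex I, were left out. This gave 101 genes of 60107, of which 88 are nuclear (38 of complex I, 10 of complex III, 19 of complex IV and 21 of ATP synthase) and 13 mitochondrial (7, 1, 3 and 2). Not every symbol stands for a structural subunit: the set also holds the ATP synthase inhibitor ATP5IF1, the coupling factor ATP5S, the supercomplex factor COX7A2L, the retrocopies UQCRHL and ATP5MGL, and the readthrough genes NDUFC2-KCTD14 and ATP5MF-PTCD1.

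RNA was sequenced from H9, a human embryonic stem cell line long in culture, under directed differentiation to nephron progenitor cells. Cells grown with glutamine (complete medium, 3 libraries) were compared with cells grown without it from day 0 through day 9 (3 libraries), all collected when day 9 of the 10-day protocol ended. All 6 libraries therefore come from 1 cell line at 1 time point, and the labels do not say whether replicates were separate differentiations, so p-values measure the spread between these libraries. Libraries held 78220507 to 84746566 counts. Members took 2.66% to 2.86% of them and nuclear members alone 0.665% to 0.784%.

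The library labelled replicate 1 with glutamine stood apart from its group. Its log2 expression had a Pearson r across genes, which are not independent, of 0.976 with both other libraries of its group and of 0.991 to 0.993 with the libraries without glutamine. Across genes it thus goes against its label, and whether the sample was mislabelled or its treatment differed was not tested. The sign, size and call of every fold change below that includes it depend on that label. All 12 nephron progenitor and intermediate mesoderm markers had counts in at least 1 library. HOXD11 was near absent in replicates 2 and 3 with glutamine, with 44, 0 and 1 counts in replicates 1, 2 and 3. Without glutamine it had 277, 418 and 475 counts. PAX2, a transcription factor of the developing kidney, measured 150, 17.0 and 12.9 CPM (counts scaled to a common library total) in the libraries of replicates 1, 2 and 3 with glutamine, against 146 to 245 CPM without. Of 5 pluripotency markers, NANOG, POU5F1 and TDGF1 did not exceed 0.151 CPM in any library and ZFP42 was at 7.18 to 11.8 CPM, while DPPA4 was at 113 to 184 CPM with and 212 to 269 CPM without glutamine. Smooth muscle markers summed to 71.2 to 113 CPM with and 139 to 296 CPM without. Of these, ACTA2 was separate between groups, at 12.7 to 16.2 CPM with and 46.6 to 101 CPM without. TAGLN, CNN1 and MYH11 overlapped. Heart and striated muscle markers summed to 2.58 to 3.40 CPM over the 6 libraries. Neural markers summed to 24.1 to 68.6 CPM with and 55.1 to 81.3 CPM without. Most of that sum was DCX, at 18.4 to 63.4 CPM with and 49.1 to 75.8 CPM without, while PAX6 and NEUROG2 were lower in every library without. Endoderm markers summed to 0.567 to 2.28 CPM with and 0.442 to 0.459 CPM without. Whether these marker differences bear on the members was not tested, and in bulk RNA fewer cells of a type and less RNA per cell cannot be told apart. For each member named, the adjusted p without this library is given where leaving it out changes the call, and for the other gene lists the number called without it.

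With all 6 libraries as labelled, the median respiratory chain message without glutamine was close to its level with it. This median takes rises and falls together, and the fit includes the library that goes against its label. The median log2 fold change (without over with) was 0.01 over the 95 members that passed the filter on low counts, against 0.001 over all 22613 genes tested. The median size of the change, ignoring its sign, was 0.10 on the log2 scale for members, 0.25 for all genes and 0.17 for the 10913 protein-coding genes with a mean of at least 500 counts. A change of more than 0.5 on the log2 scale in either direction was seen in 5 of 95 members, or 5.26%, and in 26.3% of all genes. These 5 were NDUFV2, UQCRHL, COX8C, COX7A1 and NDUFA4L2, and each was at most 7.43 CPM in any library.

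No member had an adjusted p under 0.05 by edgeR's quasi-likelihood test with Benjamini-Hochberg adjustment, a threshold that 0.00442% of all genes passed. At an adjusted p under 0.1 there were 6 members higher without glutamine and 2 lower (8.42% of members against 14.5% of all genes, 7.3% higher and 7.23% lower). At an unadjusted p under 0.05 there were 12 higher and 3 lower, or 15.8% of members against 29.7% of all genes (14.7% higher and 15.0% lower) and 32.5% of the highly expressed protein-coding genes. The 2 groups did not overlap for 13 members that were higher and 8 that were lower, or 22.1% against 34.2% of all genes (17.3% higher and 16.9% lower) and 36.3% of the highly expressed ones. Under upper quartile scaling the split at an unadjusted p under 0.05 was 10 higher and 11 lower, so the excess of higher members depends on the scaling. DESeq2 called 3 members higher (NDUFA4L2, ATP5IF1 and MT-CYB) and 2 lower (NDUFV2 and UQCRHL), or 5.26% of members, where it called 13.7% of all genes (7.38% higher and 6.3% lower). Without replicate 1 of the group with glutamine, edgeR called 13 members higher and 11 lower, or 25.3%, against 41.3% of all genes (22.3% higher and 19.0% lower). That replicate lay nearer the mean of the libraries without glutamine than that of its own group in 55 of 95 members, or 57.9%, and in 62.0% of all genes.

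**Figure D1:**
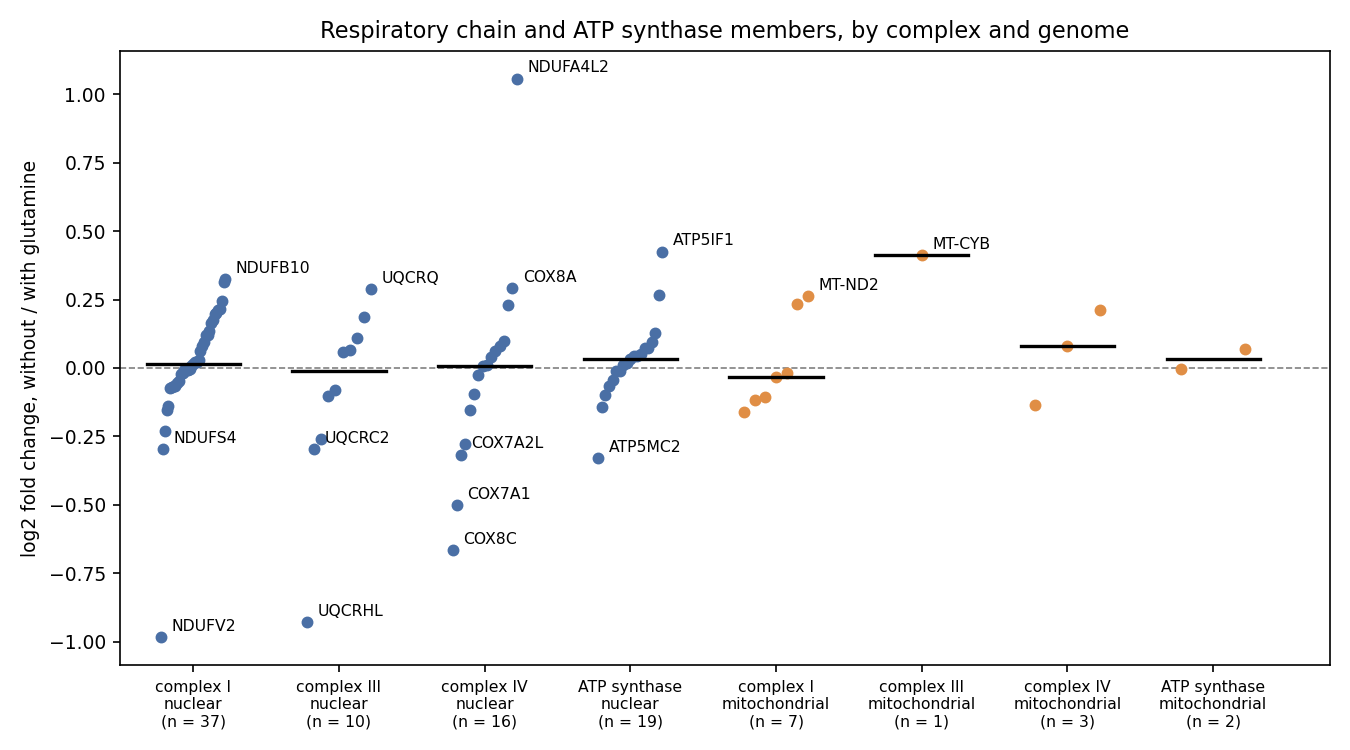
Log2 fold change without over with glutamine (vertical axis) of the 95 members tested, 1 point per gene, in columns by complex and by the genome that encodes it, with a black bar at each median. Column medians lie within 0.1 of 0 except for MT-CYB, the single mitochondrial subunit of complex III, and the widest points are genes of low expression.

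The 4 complexes and the 2 genomes had similar medians. Among nuclear genes the median log2 fold change was 0.01 for 37 members of complex I, -0.01 for 10 of complex III, 0.01 for 16 of complex IV and 0.03 for 19 of ATP synthase. The 13 mitochondrial messages had a median of -0.01, made up of -0.03 for 7 messages of complex I, 0.41 for MT-CYB, 0.08 for 3 messages of complex IV and 0.03 for both messages of ATP synthase. Differences between complexes or genomes were not tested, since members of a complex are not replicates. Without replicate 1 with glutamine the nuclear median was -0.04 and the mitochondrial median -0.001. Under upper quartile scaling they were -0.03 and -0.05, so the signs of these medians carry no direction.

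Libraries of the same group differed more than the groups did. Relative to each gene's mean over the 6 libraries, the median nuclear member lay at -0.11, -0.02 and 0.10 on the log2 scale in the libraries of replicates 1, 2 and 3 with glutamine, against -0.11, 0.08 and 0.06 without. Replicate 1 was thus the lowest library of both groups, and the groups overlapped. The summed level of the nuclear members was 7340 ± 715 CPM with and 7123 ± 493 CPM without glutamine (SD, n = 3). The mitochondrial messages did not follow this order: their median lay at 0.01, -0.09 and 0.08 with glutamine and at 0.03, -0.05 and 0.03 without. Deviations within a library also went with base composition in replicates 1 and 3, but little in replicate 2. Over 82 nuclear members, the correlation of GC content with the deviation of a library was 0.37 in replicate 1 and -0.46 in replicate 3 without glutamine, and 0.23 and -0.25 in the same-numbered libraries with it. In replicate 2 it was -0.003 without and -0.10 with glutamine. Replicate 2 without glutamine nevertheless had the highest nuclear median of its group. In replicates 1 and 3 the highly expressed protein-coding genes gave 0.37 and -0.45 without and 0.18 and -0.20 with glutamine. In replicate 2 they gave -0.008 without and -0.14 with it. The points share the library and its depth, and the part of base composition in the members' differences was not tested.

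**Figure D2:**
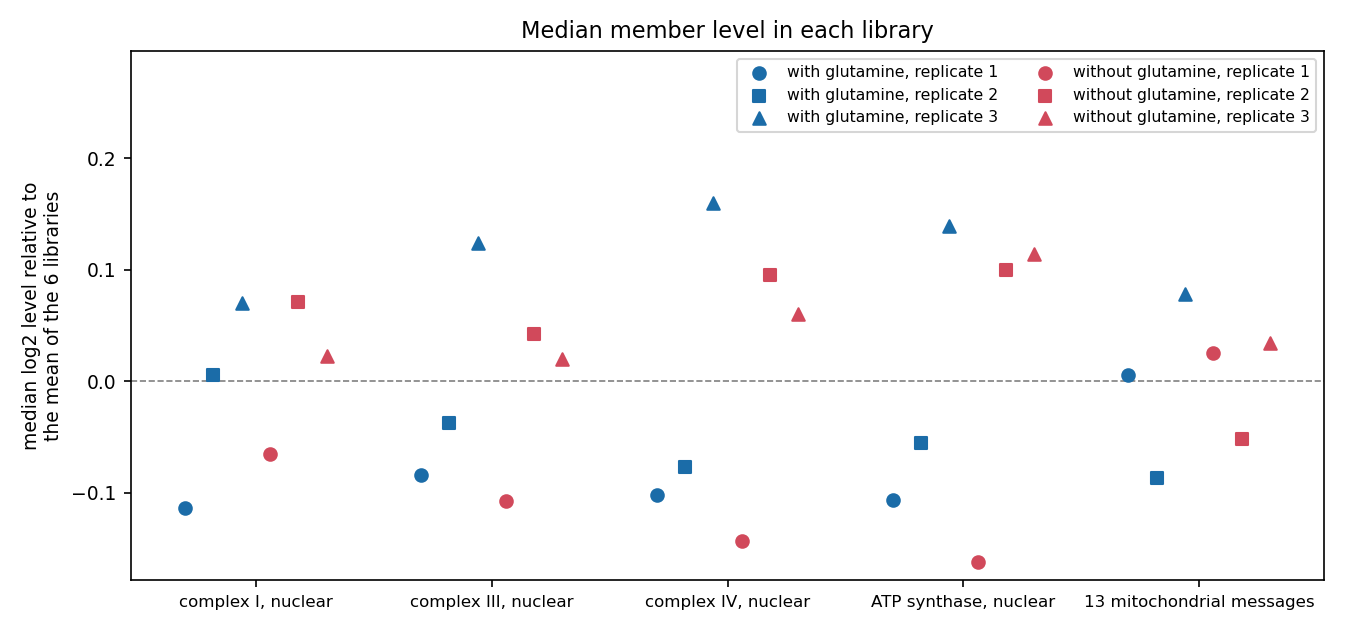
Median log2 level of the members in each library relative to each gene's mean over the 6 libraries (vertical axis), for nuclear members of 4 complexes and the 13 mitochondrial messages, blue with and red without glutamine, with a marker shape for each replicate number. In all 4 nuclear columns replicate 1 without glutamine lies below replicates 2 and 3 without it, and blue and red points overlap.

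Among nuclear complex I subunits, the libraries of the groups were separate for 5 with higher and 5 with lower levels of 37 tested, where 17.3% of all genes were higher and 16.9% lower without overlap. The accessory subunits of this complex surround the catalytic core and are needed to assemble or stabilize it. NDUFA5 was at 88.1, 86.6 and 88.2 CPM with glutamine, against 98.2, 102 and 104 CPM without. Its log2 fold change was 0.21 (SE 0.06) with an adjusted p of 0.0891 by edgeR (0.0233 without replicate 1 with glutamine), the spread within the group with glutamine being under 1 CPM (SD 0.917). The highest fold changes in the complex belonged to NDUFB10, NDUFA11 and NDUFA6, all accessory subunits. NDUFB10 was at 37.8, 36.9 and 38.6 CPM with and 53.1, 47.2 and 41.4 CPM without glutamine, a log2 fold change of 0.32 (SE 0.10). NDUFA11 was at 18.7, 17.5 and 20.1 CPM with and 24.7, 24.1 and 21.2 CPM without, a log2 fold change of 0.31 (SE 0.10). NDUFA6 was at 59.6, 57.6 and 64.1 CPM with and 67.3, 72.7 and 74.8 CPM without, a log2 fold change of 0.24 (SE 0.08). In all 3 genes every library without glutamine was above every library with it, replicate 1 included, and edgeR's adjusted p was 0.101, 0.1 and 0.101. Without that replicate it was 0.0286 for NDUFB10, 0.0287 for NDUFA11 and 0.037 for NDUFA6.

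The lowest member of complex I was NDUFV2 (ENSG00000178127, chromosome 18, 9102630 to 9134345, plus strand), a core subunit that carries an iron-sulfur cluster next to the NADH site. It was at 3.06, 6.12 and 4.65 CPM with and 2.74, 2.17 and 2.05 CPM without glutamine, a log2 fold change of -0.98 (SE 0.27) with an adjusted p of 0.0829 by edgeR. The groups did not overlap, but replicate 1 with glutamine lay near the libraries without. The adjusted p ranged from 0.000404 without that replicate to 0.268 over 18 alternatives. NDUFV2 was far below its core partner NDUFV1, which was at 88.8 to 99.4 CPM, although both belong to the same module of the complex. Its pseudogene NDUFV2P1 held 904 counts beside the 1658 of NDUFV2. A processed transcript, AP005263.1, shares 722 of the 2890 stretches of 50 bases, the read length, in the annotated NDUFV2 transcripts. AP005263.1 itself had 0 counts in every library. How the authors' counting assigned reads that match several genes is not given in the sources used here, so the level of NDUFV2 is uncertain. The same holds for NDUFA7, at 0.421 to 0.598 CPM, which shares 408 of its 1456 such stretches with the gene AC010323.1. That gene had 0 to 3 counts per library.

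Next lowest in complex I were NDUFS4 and NDUFB5, and their difference rested on replicates 2 and 3 with glutamine. NDUFS4, an accessory subunit mutated in inherited complex I deficiency, was at 52.0, 75.1 and 87.8 CPM with and 50.8, 61.7 and 62.6 CPM without glutamine, a log2 fold change of -0.30 (SE 0.19) with an adjusted p of 0.321. NDUFB5 was at 77.8, 92.6 and 100.2 CPM with and 71.8, 80.0 and 79.1 CPM without, a log2 fold change of -0.23 (SE 0.11) with an adjusted p of 0.194. In both genes replicate 1 with glutamine lay within the range of the libraries without. Leaving it out gave log2 fold changes of -0.48 and -0.32 and adjusted p-values of 0.00528 and 0.00758 by edgeR.

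Complex III hands electrons from ubiquinol to cytochrome c. Its lowest member was UQCRHL, an intronless copy of the hinge subunit gene UQCRH. UQCRHL was at 4.21, 7.43 and 6.44 CPM with and 3.45, 3.38 and 2.65 CPM without glutamine, a log2 fold change of -0.93 (SE 0.23) with an adjusted p of 0.0762 by edgeR. Every library without glutamine was below every library with it. Over 18 alternatives its adjusted p ran from 0.000187, without replicate 1 with glutamine, to 0.262, and DESeq2 gave 0.00244. The parent gene UQCRH was at 80.3, 86.3 and 97.2 CPM with and 75.1, 86.2 and 84.2 CPM without, and its groups overlapped. The annotated transcripts of both genes share 163 stretches of 50 bases, which is 10.9% of those of UQCRH and 7.65% of those of UQCRHL, so reads from these stretches cannot be told apart.

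Of the other complex III members, UQCRQ, a small ubiquinone-binding subunit, was at 40.5, 37.7 and 44.2 CPM with and 44.3, 53.5 and 51.6 CPM without glutamine. Its log2 fold change was 0.29 (SE 0.10) with an adjusted p of 0.123 (0.049 without replicate 1 with glutamine), and the nearest libraries of the 2 groups were almost level. The core protein UQCRC1 did not overlap between groups either, at a log2 fold change of 0.11 (SE 0.07) with an adjusted p of 0.311. UQCR11 had a log2 fold change of 0.19 (SE 0.10) and overlapping groups. The other core protein, UQCRC2, was at 218, 287 and 303 CPM with and 200.4, 228 and 230.1 CPM without, a log2 fold change of -0.30 (SE 0.13) with an adjusted p of 0.179. UQCRB, a ubiquinone-binding subunit, was at 115, 154 and 168 CPM with and 104, 130 and 132 CPM without, a log2 fold change of -0.26 (SE 0.16). Replicate 1 with glutamine again lay among the libraries without for UQCRC2 and UQCRB, and without it their adjusted p-values were 0.00191 and 0.0109. The core proteins UQCRC1 and UQCRC2, which form a pair in the complex, thus had values of opposite sign, a difference that was not tested.

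Complex IV, cytochrome c oxidase, reduces oxygen and has subunits with tissue forms. The ubiquitous forms were present and those of muscle, testis or lung were near absent. Per kilobase of transcript, the mean level was 266 CPM for COX4I1 against 0.105 for COX4I2, 149 for COX6B1 against 0.228 for COX6B2, 104 for COX7A2 against 0.184 for COX7A1, and 102 for COX8A against 0.519 for COX8C. COX6A2 and COX7B2 had 0 counts in every library, which allows at most 0.0349 to 0.0384 CPM (3 counts per library, counting error only), beside 25.9, 23.7 and 26.1 CPM of COX6A1 with glutamine and 58.4 to 82.2 CPM of COX7B over the 6 libraries.

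With all 6 libraries the largest fold change among the members was that of NDUFA4L2 (ENSG00000185633, chromosome 12, 57234903 to 57240715, minus strand), a paralog of the complex IV subunit NDUFA4 known as a target of hypoxia-inducible factor. It was at 1.52, 2.92 and 2.71 CPM with and 4.41, 6.08 and 4.38 CPM without glutamine, from 123 to 476 counts per library. The lowest library without glutamine exceeded the highest with it, and replicate 1 with glutamine was the lowest library. The log2 fold change was 1.06 (SE 0.26) with an adjusted p of 0.0762 by edgeR and of 0.00203 by DESeq2. Over 18 alternatives the adjusted p ran from 0.00203 to 0.26 and the log2 fold change from 0.82 to 1.22. Without replicate 1 with glutamine it was 0.82 (adjusted p 0.00427), smaller in size than the values of NDUFV2 (-1.205) and UQCRHL (-1.13) in the same fit. NDUFA4 was at 123, 125 and 151 CPM with and 111, 140 and 150 CPM without, with overlapping groups. Per kilobase NDUFA4L2 reached a mean of 3.09 CPM against 62.7 for NDUFA4.

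COX8A, the ubiquitous form of the smallest subunit, was at 49.4, 42.2 and 47.4 CPM with and 55.2, 59.8 and 55.0 CPM without glutamine. Its log2 fold change was 0.29 (SE 0.09) with an adjusted p of 0.0905 by edgeR (0.00746 without replicate 1 with glutamine), and the groups were separate. An overlapping gene, AP000721.1, covers 34.5% of its exon bases, itself with 0 counts. COX6A1 was at 28.0, 29.5 and 31.4 CPM without glutamine, above all its values with glutamine given above, a log2 fold change of 0.23 (SE 0.08) with an adjusted p of 0.129, and of 0.0376 without that replicate. At the other end, COX7A2L, which helps join complexes III and IV into supercomplexes, was at 95.7, 139 and 149 CPM with and 93.1, 107 and 108 CPM without, a log2 fold change of -0.32 (SE 0.16). COX7C was at 158, 198 and 222 CPM with and 139, 169 and 170 CPM without, a log2 fold change of -0.28 (SE 0.14). In both genes replicate 1 with glutamine lay among the libraries without. Their adjusted p was 0.236 and 0.226, and without that replicate 0.00123 and 0.00942. COX6B1 had a log2 fold change of -0.10 (SE 0.14), which turned to 0.06 without replicate 1 of the group without glutamine.

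ATP synthase consists of the catalytic F1 head and the membrane part with its ring of c subunits. The member with the smallest p was ATP5IF1 (ENSG00000130770, chromosome 1, 28236109 to 28246906, plus strand), the inhibitor that binds the F1 head and blocks ATP hydrolysis when the proton gradient collapses. ATP5IF1 was at 57.8, 50.1 and 49.4 CPM with and 70.9, 73.1 and 67.3 CPM without glutamine, a clear gap between groups of small spread, 52.5 ± 4.67 against 70.4 ± 2.93 CPM (SD, n = 3). The log2 fold change was 0.42 (SE 0.09) with an adjusted p of 0.0689 by edgeR and of 0.00332 by DESeq2. It was 0.38 to 0.50 over 18 alternatives, 2 of which called it, with adjusted p-values from 0.000399 (without replicate 1 with glutamine) to 0.259.

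**Figure D3:**
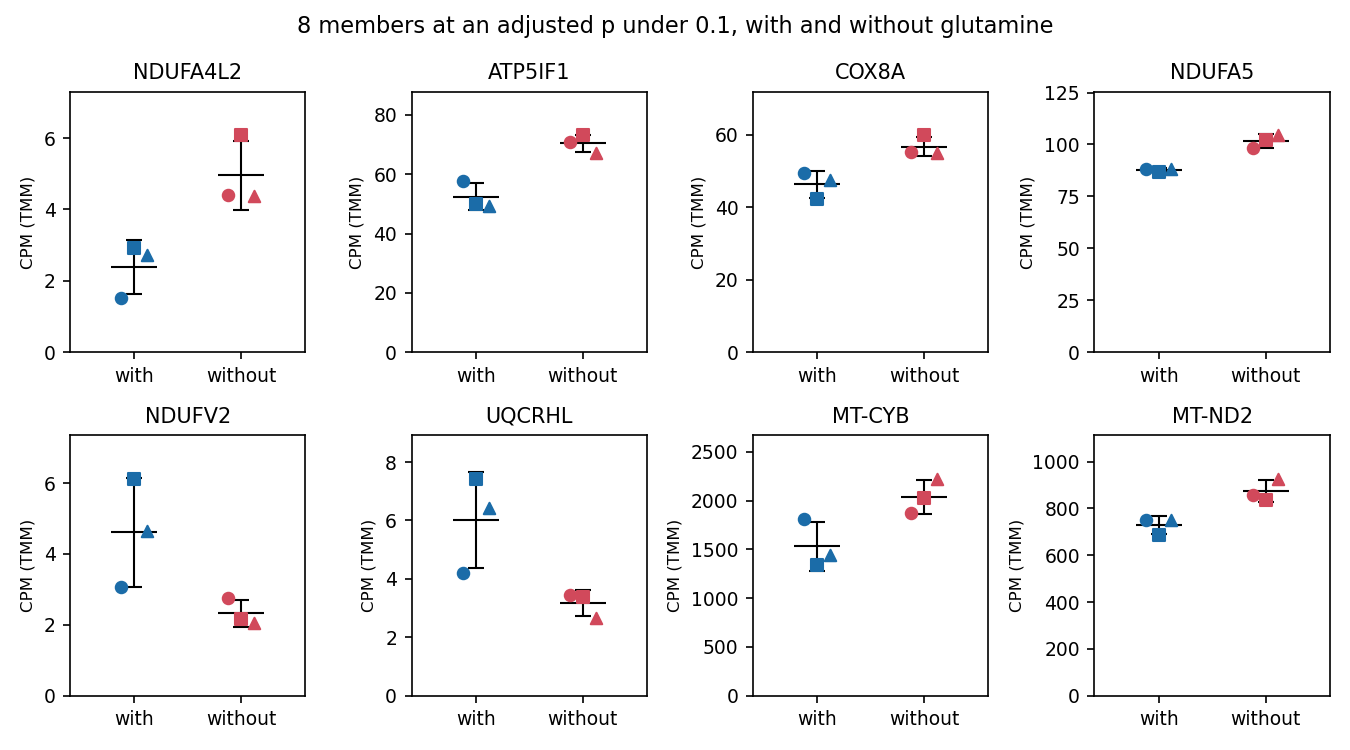
Expression in CPM with TMM scaling (vertical axes, from 0) of the 8 members with an adjusted p under 0.1, with glutamine in blue and without in red, 1 marker per library (circle, square and triangle for replicates 1, 2 and 3), with the mean and SD of each group in black. Groups do not overlap in any panel, and in NDUFV2, UQCRHL and MT-CYB the gap from replicate 1 with glutamine to the nearest red point is small.

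The subunits that form the F1 head had values below 0 that did not pass the test with all 6 libraries. ATP5F1A, the alpha subunit, had a log2 fold change of -0.14 (SE 0.09) and ATP5F1B, the catalytic beta subunit, of -0.10 (SE 0.11). Without replicate 1 with glutamine these were -0.22 (adjusted p 0.0409 by edgeR) and -0.19 (adjusted p 0.0756), and without replicate 3 of that group -0.07 and -0.01. ATP5F1D, the delta subunit of the central stalk, was at 20.7, 23.5 and 24.6 CPM with and 34.1, 27.0 and 21.7 CPM without glutamine, a log2 fold change of 0.27 (SE 0.17) with overlapping groups. ATP5MD had a log2 fold change of 0.13 (SE 0.13). The c subunit is encoded by 3 genes with the same mature protein and different import sequences. ATP5MC2, the most abundant of them, was at 271, 313 and 341 CPM with and 209.8, 266 and 260.5 CPM without glutamine. No library without glutamine reached the lowest one with it, and the log2 fold change was -0.33 (SE 0.12) with an adjusted p of 0.134 by edgeR, and of 0.00964 without replicate 1 with glutamine. ATP5MC1 and ATP5MC3 were at 24.7 to 32.6 and 176 to 212 CPM over the 6 libraries, with overlapping groups. The 5 other tested subunits of the membrane part and the 4 of the peripheral stalk all had overlapping groups and log2 fold changes between -0.04 and 0.13.

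Promoters of nuclear respiratory genes are known for sites of the ETS factor GABP (also called NRF2), of NRF1 and of YY1. RefSeq start sites on GRCh38.p14 were found for 68 of the 88 nuclear members, 2 of them under newer symbols, and the window from 250 bases before to 50 after the start was searched on both strands. The ETS word CCGGAAG was in the window of 19 members (27.9%) and of 12.2% of all 27305 genes in the table. The word GCGCATGC, part of the NRF1 site, was in 12 members (17.6%) and 3.68% of all genes, and the YY1 word AAGATGGC in 11 (16.2%) and 3.52%. Matches of different words overlapped in 0 members, and a match is a description of letters, not of binding.

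Of the 11 nuclear members that were higher without overlap, 10 had a promoter in the table and 4 held the ETS word: COX8A, COX6A1, UQCRQ and NDUFB7. Of the 7 that were lower without overlap, 5 had a promoter and 0 held it, and of 50 members with overlapping groups 15 did. The NRF1 word was in 3 of the 10 higher (NDUFA5, NDUFA6 and COX6A1), 1 of the 5 lower (ATP5MC2) and 8 of the 50, and the YY1 word in 2 (NDUFA6 and UQCRC1), 1 (NDUFA3) and 8. These counts are small, were made after the values were seen and were not tested. The 100 bases before the start are shown for the 4 genes, since they show the word close to the start in members of complexes I, III and IV. Capitals mark the word on either strand, and the sequence reads in the direction of the gene. They lie at chr11:63974520-63974619 (plus strand) for COX8A, chr12:120438013-120438112 (plus) for COX6A1, chr5:132866542-132866641 (plus) for UQCRQ and chr19:14572067-14572166 (minus) for NDUFB7.
COX8A: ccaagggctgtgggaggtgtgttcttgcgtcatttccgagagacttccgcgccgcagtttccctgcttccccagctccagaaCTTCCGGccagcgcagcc
COX6A1: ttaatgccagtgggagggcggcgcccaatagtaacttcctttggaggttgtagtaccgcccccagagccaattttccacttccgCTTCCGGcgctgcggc
UQCRQ: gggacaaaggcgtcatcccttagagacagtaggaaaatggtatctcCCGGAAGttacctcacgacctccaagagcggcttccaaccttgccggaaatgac
NDUFB7: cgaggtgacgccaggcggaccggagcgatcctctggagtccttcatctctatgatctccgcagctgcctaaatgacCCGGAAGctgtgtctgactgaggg

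The word began 18 bases before the start in COX8A, 16 in COX6A1, 24 in NDUFB7 and 54 in UQCRQ, in the first 2 as CTTCCGG on the other strand. NDUFB7, a complex I accessory subunit, was at 37.3, 35.3 and 39.8 CPM with and 43.2, 42.8 and 44.2 CPM without glutamine, a log2 fold change of 0.21 (SE 0.07) with an adjusted p of 0.122 by edgeR. The factors themselves were near level: GABPA, the DNA-binding part of GABP, had a log2 fold change of 0.12 (SE 0.07) and NRF1 of 0.09 (SE 0.07), both with overlapping groups. YY1 had the opposite sign, at -0.07 (SE 0.09), also with overlapping groups.

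The mitochondrial genome is transcribed from both strands as long precursors that are cut at the tRNAs between the genes, so the messages of a strand arise from shared precursors and then differ by their processing and decay. Per kilobase, the mean level ran from 769 CPM for MT-ND2 to 3540 CPM for MT-CO3, above every nuclear member (highest 437 CPM, ATP5F1B). The 13 messages together made up 75.9%, 72.6% and 71.9% of member counts with glutamine and 75.4%, 73.0% and 74.8% without. That is 73.5% ± 2.18 against 74.4% ± 1.29 (SD, n = 3), a difference of 0.928 percentage points that is within the spread of the libraries. Counting error was at most 0.0606 points on either side of a library's value (95% Wilson interval, for counting error only). Without replicate 1 with glutamine the difference was 2.17 points and without replicate 3 it was 0.132.

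While the groups overlapped in this sum, they were separate in the proportions of several messages. Of the 13, 4 took a larger share of the mitochondrial counts in every library without glutamine (MT-CYB, MT-CO3, MT-ND2 and MT-ND1) and 2 a smaller share (MT-CO1 and MT-ND4). Over all genes, measured in CPM and not as shares, 34.2% did not overlap between groups (17.3% higher and 16.9% lower). Shares of a whole are tied, so a larger share of some messages lowers that of others. MT-CO1, the catalytic subunit of complex IV and the largest fraction, took 25.3%, 24.9% and 25.3% with and 22.7%, 22.2% and 22.6% without glutamine. MT-ND2, a proton-pumping subunit of complex I, took 3.58%, 3.53% and 3.64% with and 4.27%, 4.16% and 4.24% without. In these 2 messages replicate 1 with glutamine kept to its own group. MT-CYB, cytochrome b of complex III, took 8.66%, 6.93% and 6.98% with and 9.29%, 10.1% and 10.2% without, and MT-CO3 14.1%, 11.5% and 12.3% against 14.2%, 14.6% and 14.5%. In both of these, replicate 1 with glutamine was next to the libraries without.

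**Figure D4:**
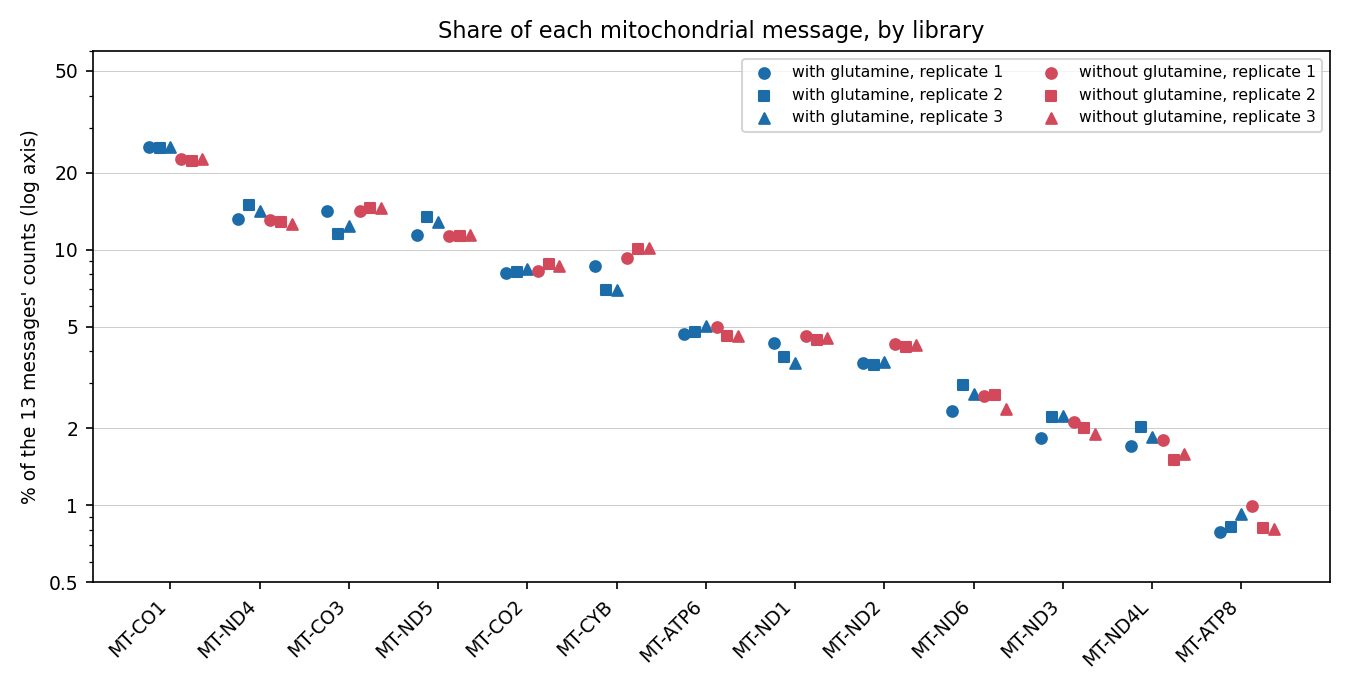
Share of each of the 13 mitochondrial messages in the counts of all 13, in percent on a log axis, ordered by the mean with glutamine, with 3 libraries with glutamine (blue) and 3 without (red), a marker shape for each replicate number. MT-CO1 and MT-ND4 sit lower and MT-CYB, MT-CO3, MT-ND1 and MT-ND2 higher in all red libraries.

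Ratios within a library, which need no scaling between libraries, show this most tightly. The ratio of MT-ND2 to MT-CO1 counts was 0.142, 0.142 and 0.144 with glutamine and 0.188, 0.187 and 0.188 without. Its spread was 0.00111 with and 0.000434 without (SD, n = 3), far less than the gap, and replicate 1 lay with its group. This pair of messages was chosen after the values were seen, and an exact two-sided permutation test of 3 against 3 libraries cannot go below a p of 0.1, so no p is given. The ratio of MT-CYB to MT-CO1 was 0.343, 0.278 and 0.276 with and 0.41, 0.454 and 0.451 without, and that of MT-CO3 to MT-CO1 was 0.558, 0.461 and 0.487 with and 0.625, 0.657 and 0.643 without. A ratio shows unequal change and not which of its messages moved.

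**Figure D5:**
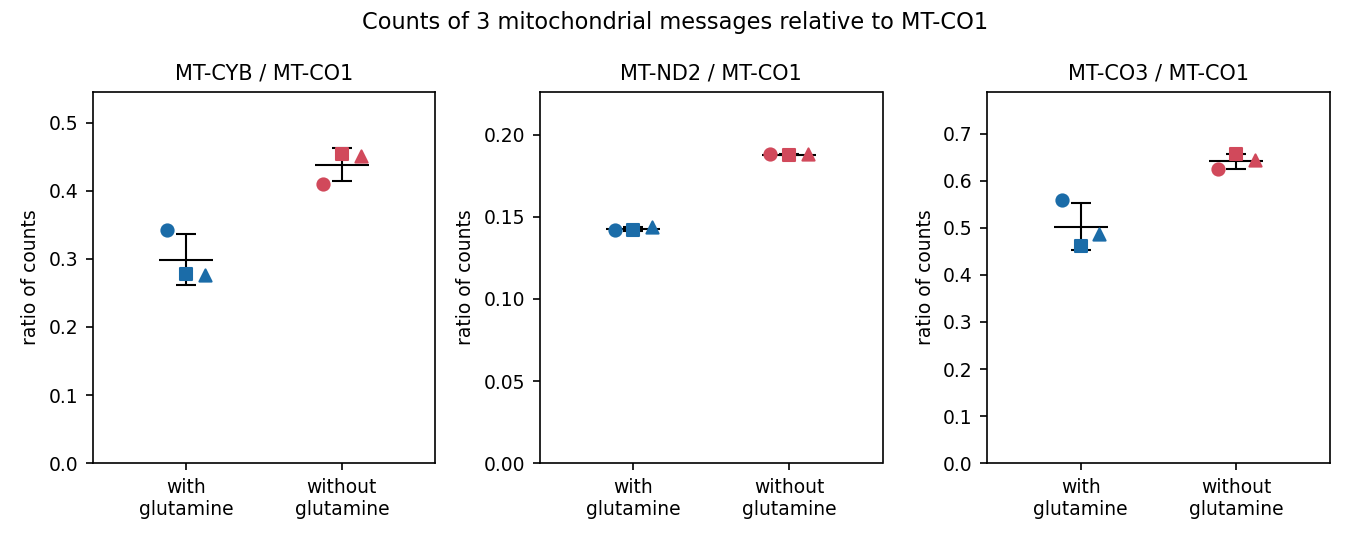
Ratio of the counts of MT-CYB, MT-ND2 and MT-CO3 to those of MT-CO1 in each library (vertical axes, from 0), 1 marker per library with a shape for each replicate number, with the mean and SD of each group in black. The 3 libraries with glutamine (blue) lie below the 3 without (red) in every panel, with the smallest spread in MT-ND2.

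Scaled to the whole library, 2 of the 13 mitochondrial messages (15.4%) had an adjusted p under 0.1, as did 14.5% of all genes. MT-CYB was at 1813, 1342 and 1438 CPM with and 1871, 2024 and 2222 CPM without glutamine, a log2 fold change of 0.41 (SE 0.13) with an adjusted p of 0.0998 by edgeR and 0.0385 by DESeq2. Its lowest library without glutamine was close to replicate 1 with it, and its adjusted p ran from 0.000704 (without replicate 1 with glutamine) to 0.315 over 17 alternatives. MT-ND2 was at 751, 685 and 749 CPM with and 859, 835 and 926 CPM without, a log2 fold change of 0.26 (SE 0.08) with an adjusted p of 0.0875, and of 0.0127 without replicate 1 with glutamine. MT-ND4 was also separate between groups, by a narrow margin, at 2769 to 2907 CPM with and 2580 to 2763 CPM without, a log2 fold change of -0.11 (SE 0.07) with an adjusted p of 0.329.

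The other 10 messages overlapped between groups. MT-ND1 had a log2 fold change of 0.23 (SE 0.10) and MT-CO3 of 0.21 (SE 0.11), and both had an adjusted p under 0.05 only when replicate 1 with glutamine was left out (0.00387 and 0.0109). MT-CO1 had -0.14 (SE 0.08), MT-ND5 -0.12 (SE 0.08) and MT-CO2 0.08 (SE 0.08). MT-ND4L, whose gene overlaps that of MT-ND4 in a shared message, had -0.16 (SE 0.09). MT-ND3, MT-ND6, MT-ATP8 and MT-ATP6, the last 2 also overlapping in 1 message, had log2 fold changes of -0.03, -0.02, 0.07 and -0.01, which changed sign when single libraries were left out. MT-ND6, the only protein message of the other strand, was at 488, 573 and 561 CPM with and 536, 543 and 521 CPM without.

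Nuclear copies of mitochondrial DNA share sequence with these messages. The pseudogene MTND2P28 shares 433 of the 993 stretches of 50 bases in MT-ND2, and MTCO1P12 shares 738 of 1493 in MT-CO1. MTND2P28 was at 36.1, 33.6 and 38.4 CPM with and 44.8, 39.1 and 44.8 CPM without glutamine, a log2 fold change of 0.25 (SE 0.09), beside 0.26 for MT-ND2. MTCO1P12 had -0.14 (SE 0.13), beside -0.14 for MT-CO1. MTND4P12 had -0.13 (SE 0.08), and MTATP6P1, at 75.0 to 87.9 CPM, -0.01 (SE 0.09). For MTND2P28, MTCO1P12 and MTND4P12 the sign was thus that of the message, and which reads came from which copy was not tested.

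Complex II and cytochrome c, the parts of the chain outside the rule, held 1 gene of 5 at an adjusted p under 0.1, as did 14.5% of all genes. SDHC, a membrane anchor of complex II, was at 99.9, 125 and 126 CPM with and 87.5, 85.9 and 89.4 CPM without glutamine, a log2 fold change of -0.42 (SE 0.10) with an adjusted p of 0.0736 by edgeR (0.000185 without replicate 1 with glutamine). The groups were separate. SDHA, the flavoprotein that oxidizes succinate, had a log2 fold change of 0.15 (SE 0.07) and CYCS, cytochrome c itself, of 0.32 (SE 0.10), both higher without overlap and with adjusted p-values of 0.205 and 0.104, or 0.0389 and 0.0459 without that replicate. SDHB and SDHD had 0.07 (SE 0.10) and 0.13 (SE 0.10) and overlapping groups.

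Factors that assemble the complexes had a median log2 fold change of -0.02 over 50 genes, with 10 higher and 8 lower without overlap (17.3% and 16.9% of all genes) and 0 called by edgeR. Of the 50, 1 (ATP5S) is also a member. Without replicate 1 with glutamine edgeR called 3 higher and 13 lower, where it called 22.3% and 19.0% of all genes. In complex I, NDUFAF4 had a log2 fold change of 0.37 (SE 0.10, adjusted p 0.0787) and NDUFAF6 of 0.27, while NDUFAF2 and NDUFAF3 had -0.27 and -0.22. The last 2 depended on single libraries: without replicate 1 with glutamine they were -0.44 and -0.34 (adjusted p 0.0123 and 0.0244), and without replicate 3 of that group -0.06 and -0.14. The 6 factors of complex III had the lowest median, -0.23, with LYRM7 at -0.37, UQCC1 at -0.33, BCS1L at -0.03 and UQCC3 at 0.21. UQCC2, the factor of this complex with an adjusted p under 0.1, was at 51.7, 51.6 and 57.3 CPM with and 41.3, 42.9 and 44.6 CPM without glutamine, a log2 fold change of -0.32 (SE 0.08, adjusted p 0.0737), and the groups were separate. LYRM7 and UQCC1 had adjusted p-values of 0.00192 and 0.00105 without replicate 1 with glutamine. For complex IV, COX15, a heme A synthase, was at 75.9, 90.2 and 94.1 CPM with and 68.8, 70.0 and 69.9 CPM without glutamine, a log2 fold change of -0.32 (SE 0.09, adjusted p 0.089). The other extremes of that list were PET117 at -0.41, COX20 at 0.27 and COX16 at 0.29. For ATP synthase, ATPAF1 had -0.24, the member ATP5S -0.07, ATPAF2 0.02 and TMEM70 0.21.

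Genes that transcribe and process mitochondrial RNA had a median of -0.03 over 28, with 0 called by edgeR. At an unadjusted p under 0.05, 3 were higher and 2 lower (14.7% and 15.0% of all genes). Without replicate 1 with glutamine edgeR called 3 higher and 5 lower, where it called 22.3% and 19.0% of all genes. LRPPRC, which stabilizes mitochondrial messages together with SLIRP, was at 387, 535 and 572 CPM with and 364, 365 and 365 CPM without glutamine. Its log2 fold change was -0.45 (SE 0.14) with an adjusted p of 0.0999 (7.04e-05 without replicate 1 with glutamine), all libraries without being below all with it. SLIRP had 0.28 (SE 0.11) with overlapping groups, KIAA0391, the nuclease of mitochondrial RNase P, 0.23, and POLG2 -0.25. The part of LRPPRC in the proportions of the messages was not tested. The polymerase POLRMT and the factor TFAM had 0.05 (SE 0.13) and 0.04 (SE 0.10).

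Regulators of respiratory genes had a median of 0.04 over 12 genes and a range from -1.07 to 1.47, with 0 called by edgeR. Without replicate 1 with glutamine edgeR called 2 higher and 3 lower, where it called 22.3% and 19.0% of all genes. The coactivator PPARGC1A was at 5.50, 2.15 and 1.99 CPM with and 7.56, 7.03 and 7.04 CPM without glutamine, a log2 fold change of 1.16 (SE 0.37) with an adjusted p of 0.102 by edgeR. Without replicate 1 with glutamine it was 1.80 (adjusted p 4.05e-06), and DESeq2 also called it with all 6 libraries. Its relative PPARGC1B was at 5.64, 8.39 and 7.66 CPM with and 4.10, 3.19 and 2.98 CPM without, a log2 fold change of -1.07 (SE 0.20) with an adjusted p of 0.0679 by edgeR, and it was called without that replicate and by DESeq2. The 2 coactivators thus had opposite signs without overlap between groups. EPAS1, which encodes a hypoxia-inducible factor subunit, was at 6.80, 0.346 and 0.267 CPM with and 7.21, 7.53 and 5.97 CPM without, so that replicate 1 with glutamine lay among the libraries without. Its log2 fold change was 1.47 (SE 0.95), and 4.49 without that replicate. MYC had -0.63 (SE 0.31), with replicate 1 with glutamine, at 27.6 CPM, below every other library. Without that library MYC was at -0.94 (adjusted p 2.26e-05, against 0.219 with all 6), and without replicate 3 of its group at -0.41. Mitochondrial ribosomal proteins had a median of 0.07 over 78 genes, 12 higher and 6 lower without overlap (17.3% and 16.9% of all genes) and 0 called by edgeR. Without replicate 1 with glutamine, 7 were called higher and 11 lower, against the same 22.3% and 19.0% of all genes. Their values ran from MRPL10 at -0.38 and MRPS27 at -0.29 to MRPL57 at 0.39 and MRPS11 at 0.42.

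The 6 members that were not tested had few or no counts. NDUFC2-KCTD14, COX6A2 and COX7B2 were at 0 in every library, and COX4I2, ATP5MF-PTCD1 and ATP5MGL did not exceed 0.153 CPM. The members with the most and the fewest counts among those tested were MT-CO1 and COX7A1, the latter at 0.0814 to 0.209 CPM with a log2 fold change of -0.50 (SE 0.39).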

How the data were processed

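The authors deposited raw counts per Ensembl gene for 6 libraries and a table of normalized counts, used here as a signal for 1 alternative. Per the submitters' processing notes, cutadapt, Trim Galore, FastQC, STAR 2.5.2b, DESeq2 and GRCh38 were used. The counting program, its strand setting and its handling of multiply aligned reads are not given in the sources used here. Libraries were stranded mRNA, read as single 50-nt ends, per the labels. The column headings name days 0 and 9 although all samples are from day 9. A column's sample was read from the sample description that names it, and all directions depend on this. Symbols came from GENCODE 29, matching 56531 IDs and missing 3576 (0.148% of counts).

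All 22613 genes kept by filterByExpr (99.95% of counts) were fitted with edgeR 4.0.16 (R 4.3.3, TMM, quasi-likelihood F test, legacy = FALSE, robust = FALSE) and adjusted by Benjamini-Hochberg over all of them. The standard error is the absolute log2 fold change over the square root of F. CPM uses TMM-scaled library sizes. Levels per kilobase use the median length of the annotated principal transcripts. DESeq2 1.42.0 and limma 3.58.1 gave alternatives. The script was tested on simulated counts: with 200 genes changed, 63.3% of changes of 1 and 95.6% of changes of 2 on the log2 scale were recovered with all 6 libraries and 22613 genes, with 16 false calls. Smaller changes were not simulated. Genes were drawn independently, with no library departing across many genes at once as replicate 1 with glutamine does. The shares recovered therefore do not measure recovery in the real libraries.

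The members, the lists and the tests were chosen with earlier results of these data known. Named are all mitochondrial messages, the 3 highest and 3 lowest members of each nuclear complex with a mean of at least 50 counts in a group, preset paralog pairs and ATP5IF1, the members with most and fewest counts, complex II with CYCS, and the 2 highest and 2 lowest genes of each other list. NDUFA5, NDUFB7, NDUFV1, NDUFA7, UQCC2, GABPA, NRF1, YY1, TFAM and POLRMT were added after their values were seen, as were the message ratios, shares and the promoter words.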

Additional observations from a re-analysis of the deposited data

How the results depend on the processing

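The count of all genes called by edgeR, 1, was 0 under upper quartile scaling, library size only, the legacy setting, limma-voom and the fit with a replicate block, 2 with no filter and with limma-trend, 3030 with DESeq2, and 0 to 9573 when a library was left out (9573 when it was replicate 1 with glutamine, 17 when it was replicate 1 from the cells lacking it). Member calls, 0 in the test as reported, were 3 higher and 2 lower with DESeq2, and 0 to 13 higher and 0 to 11 lower when a library was left out, above 0 only when that was replicate 1 with glutamine. At an unadjusted p under 0.05, 12 members were higher and 3 lower. The lower count was 11 under upper quartile scaling, 6 with library size only, 6 with no filter and 8 with a replicate block. Leaving out a library gave 2 to 16 higher (2 when it was replicate 2 with glutamine, 7 when it was replicate 2 of the other group) and 2 to 13 lower. Members without overlap, 13 higher and 8 lower, were 13 lower under upper quartile scaling, and 12 to 28 higher and 9 to 22 lower when a library was left out, where fewer libraries make overlap rarer. Medians by complex and genome moved by less than the spread of the library medians, except for mitochondrial complex I, at -0.097 to 0.0074 when a library was left out. The difference in mitochondrial share was 0.534 points per kilobase and 0.982 without MT-ATP8 and MT-ND4L. Of 74 named genes, 47 passed the threshold without replicate 1 with glutamine. Most were named as extremes of their lists in these same data, so this count does not describe the lists. In that fit 25.3% of members and 41.3% of all genes passed. The log2 fold change of MT-ATP6 turned to 0.0013 with no filter and 0.00050 with limma-trend, and that of ATPAF2 to -0.028 under upper quartile scaling. Sign changes when a library was left out occurred for MT-ND3 (-0.097 to 0.028), MT-ND6 (-0.084 to 0.017), MT-ATP6 (-0.057 to 0.037), MT-ATP8 (-0.0054 to 0.15), COX6B1 (-0.20 to 0.055), BCS1L (-0.092 to 0.026), ATPAF2 (-0.022 to 0.053) and MTATP6P1 (-0.082 to 0.046). The cause was not tested. DESeq2 size factors and a mean of at least 10 counts moved no count of members by over 1.5 times, nor did the robust setting for the counts by p. TMM without the mitochondrial genome was run for all-gene calls, nuclear medians and named nuclear genes but not for counts of members. Among tested members under 1 CPM the standard error of the log2 fold change was 0.22 to 0.39, which limits what they can show. Same-numbered libraries had deviation correlations of -0.0205, 8.77e-05 and 0.0281, and 2 of 6 libraries correlated best with their own number. The correlation with GC content, however, was positive in both libraries numbered 1 (0.23 with and 0.37 without glutamine). It was negative in both numbered 3 (-0.25 and -0.46). These values do not decide whether replicate numbers pair the samples, so the replicate block stands only as an alternative.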
